A study of Mus musculus with 3 samples.

Results

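The genes of the integrated stress response and of the amino acid supply that it controls were examined on 3 microarrays of Hepa1c1c7 cells, a mouse hepatoma line. The list held 34 genes, listed by name as members of the pathway of the transcription factor ATF4, and each was represented by its brightest probe. A probe was matched to 33 of the 34, and 31 of these were well above background on at least 1 array, out of 23541 features so detected and 45608 features in all. Of the 31, 30 were well above background on all 3 arrays, and Vldlr was not on the array labelled Mst1r. Fgf21, a secreted hormone, and Stc2, a secreted glycoprotein, stayed near background on every array, with signals from 3.68 to 8.30 and from 3.66 to 4.13, and no probe was matched to Pycr1, an enzyme of proline synthesis.

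Each array held total RNA of cells of the same line, transfected with an empty vector, with a vector carrying the open reading frame of Mst1r, a receptor tyrosine kinase, or with a vector carrying that of Slpi, a secreted protease inhibitor. The cells were examined after a transient transfection with plasmids purchased as clones, and the study used them to look for genes that respond to either product. There was 1 array per vector, so that no comparison could be tested against the variation between cultures, and vector and place on the slide cannot be told apart. The ± given below is the SD between repeated spots of 1 array at the same brightness, carried over to the difference of 2 arrays, and it covers no variation between cultures.

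In the integrated stress response, kinases that sense amino acid shortage, endoplasmic reticulum stress or haem shortage phosphorylate the initiation factor eIF2, which lowers translation in general and raises that of the ATF4 messenger RNA. ATF4, with C/EBP partners, then activates genes for amino acid synthesis, transport and tRNA charging, and the later regulators CHOP, Trib3 and GADD34. ATF4 and its partners bind a composite C/EBP-ATF response element, whose core is TGATGNAA, where N is any base, and ATF and CREB factors bind the palindrome TGACGTCA.

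These cores are shown first in the promoters of the members, for genes picked by their values on these arrays. Whether a core goes with a difference between the arrays was not tested. The promoters, from 250 bases before to 50 bases after each start, were those of RefSeq on GRCm38.p6, and 31 of the 34 genes had one (Cth, Slc7a5 and Slc1a5 did not). TGATGNAA was found on either strand in 8 of the 31 genes (25.8%), against 4.51% of 27025 genes with a promoter. They were Trib3, Nupr1, Asns, Pycr1, Chac1, Slc7a11, Fgf21 and Vldlr. The list was made of ATF4 pathway genes, so a higher share of this core in it is not a result of these arrays. TGACGTCA was found in 1 of the 31 (3.23%), Ppp1r15a, against 2.03% of all genes, a share from which 1 gene cannot be told apart. Neither was found in the windows of Ddit3 and Slc6a9, and a match of letters says nothing about binding in these cells. The windows are read 5′ to 3′ on the strand of the gene, with each match to a core in capitals. The first 4 genes were past 1.5-fold higher on the Mst1r-labelled array, Vldlr was past 1.5-fold lower, and Asns and Slc7a11 are shown beside them as genes that hold the core and were not.
Nupr1, chr7:126625547-126625606, minus strand: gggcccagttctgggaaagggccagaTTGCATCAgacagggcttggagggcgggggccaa
Chac1, chr2:119351023-119351082, plus strand: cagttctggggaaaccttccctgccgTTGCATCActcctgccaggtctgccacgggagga
Trib3, chr2:152344028-152344057, minus strand: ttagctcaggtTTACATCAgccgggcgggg
Ppp1r15a, chr7:45526269-45526328, minus strand: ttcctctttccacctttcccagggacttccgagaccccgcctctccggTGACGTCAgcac
Vldlr, chr19:27216794-27216853, plus strand: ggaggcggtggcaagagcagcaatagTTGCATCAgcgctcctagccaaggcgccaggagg
Asns, chr6:7693210-7693269, minus strand: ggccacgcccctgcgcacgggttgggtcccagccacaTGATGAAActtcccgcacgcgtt
Slc7a11, chr3:50443646-50443705, minus strand: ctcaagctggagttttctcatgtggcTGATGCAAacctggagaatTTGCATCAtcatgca
The TGATGNAA core of Trib3 lay within the transcript, from base 15 after the start. That of Asns lay closest to its start among the members with this core before the start, with 15 bases between, and the window of Slc7a11 held the core on both strands.

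Before the members were compared, the labels and the arrays were checked. The probe of Mst1r did not stand well above background on the arrays, with signals of 4.15 with empty vector, 4.08 on the array labelled Mst1r and 3.70 on that labelled Slpi. The brighter Slpi probe read 6459, 3843 and 6680 in the same order, which after scaling was 0.13 ± 0.13 on the log2 scale above empty vector for the Slpi label. For the Mst1r label its difference was -0.52 ± 0.12. The dimmer Slpi probe (row 380) read 106, 91.7 and 85.8. It differed by 0.02 ± 0.27 for the Mst1r label and by -0.23 ± 0.27 for the Slpi label. The probes therefore did not show either vector, and whether they lie in the part the vectors carry is not known from the files. The paper reports overexpression of Mst1r in Hepa1c1c7 cells by real-time PCR. The arrays are called the Mst1r-labelled and the Slpi-labelled array below. Between 46.7% and 48.5% of the probes were well above background, and no spot was saturated. Among control probes whose median signal was under 15, single spots passed 50 in 25 of 2688 cases with empty vector, 39 of 2653 on the Mst1r-labelled and 27 of 2653 on the Slpi-labelled array. Of these 25, 39 and 27 spots, 25, 37 and 26 lay in the first of 3 equal blocks of rows (called the upper rows, and the others the lower rows), and the brightest read 207, 289 and 481. For this reason the 19 detected members with their brightest probe in the lower rows are also given apart from the 12 in the upper rows.

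Against empty vector, 6 of the 31 detected members were at least 1.5-fold higher on the Mst1r-labelled array with a signal over 50, which was 19.4% of them against 5.37% of the 23541 detected features. They were Slc6a9, Nupr1, Trib3, Ppp1r15a, Chac1 and Ddit3. The members and the lists below were chosen with earlier results of these data known, so their shares describe them and test nothing. In the other direction 1 member, Vldlr, was at least 1.5-fold lower, against 3.97% of the features. Of the 19 members with their brightest probe in the lower rows, 4 were higher (21.1%, against 3.68% of the features there) and Vldlr was lower (against 1.5%). Nupr1 (row 82) and Chac1 (row 73) had their probes in the upper rows. On the Slpi-labelled array 0 of the 31 were past 1.5-fold in either direction, against 2.55% of the features higher and 2.92% lower, and in the lower rows 0 of 19 were, against 0.659% and 0.272%. Trib3 was the farthest above empty vector, by 0.40 ± 0.12. The median log2 difference of the 31 members was 0.20 on the Mst1r-labelled array, where that of all features with a mean signal over 50 was -0.04, and 24 of the 31 were above 0 against 42.1% of the features. It was 0.093 with spike-in scaling and -0.029 without scaling, where all features stood at -0.14 and -0.27. On the Slpi-labelled array it was 0.03 against 0.0033, with 16 of the 31 above 0. The 6 higher members and Vldlr each rest on 1 detected probe on 1 spot per array.

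**Figure D1:**
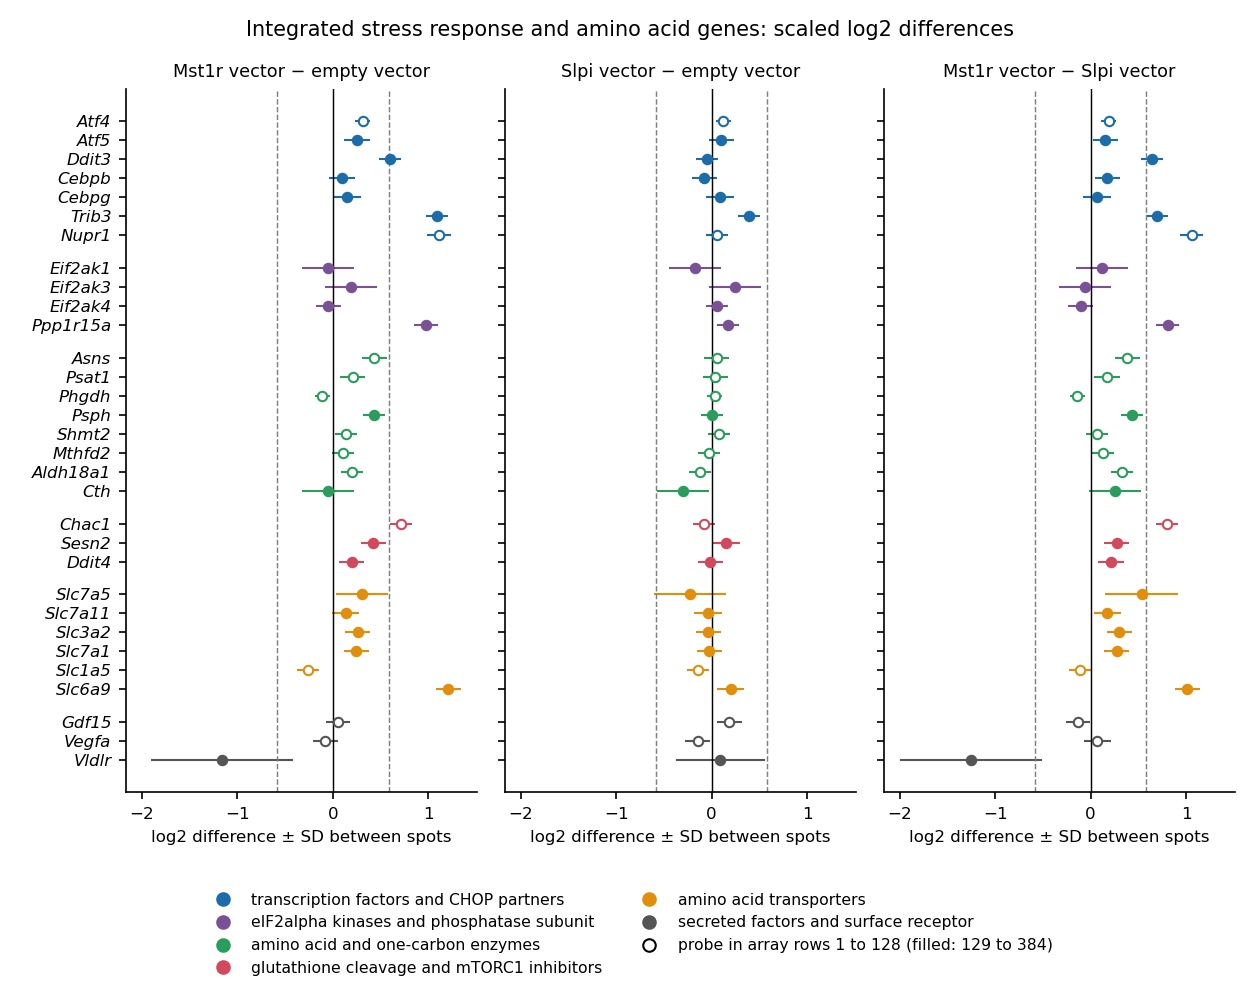
Scaled log2 differences of the 31 detected members, by role, for the 3 pairs of arrays (x axis, log2; whiskers, SD between repeated spots at that brightness; dashed lines, 1.5-fold; open circles, probes in the upper rows). In the left and right panels 6 members lie to the right of the dashed line and Vldlr to the left, and in the middle panel no member passes either line.

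All signals below are background-corrected readings before scaling, in the order empty vector, Mst1r-labelled, Slpi-labelled, whereas all log2 differences are after scaling each array to its 75th percentile, which was 268, 229 and 254. A member with nearly equal signals on the first and second arrays therefore has a difference above 0.

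Among the regulators, the probes of all 7 members were above empty vector on the Mst1r-labelled array, with a median of 0.31. Of all features with a mean signal over 50, 42.1% were above 0. Past 1.5-fold were 3 of the 7, against 5.37% of the detected features. That all 7 lay above 0 depended on the scaling. Without scaling Cebpb (-0.13) and Cebpg (-0.076) were below empty vector, and with spike-in scaling Cebpb was just below it. Nupr1, a small chromatin-associated stress protein, had signals of 2880, 5317 and 2834, a difference of 1.11 ± 0.12 (2.16-fold). Trib3, a pseudokinase that binds ATF4 and dampens its activity, had signals of 1669, 3030 and 2079, a difference of 1.09 ± 0.12 (2.13-fold). The Slpi-labelled array matched empty vector for Nupr1 within the SD between spots, with a difference of 0.05 ± 0.12, whereas it lay between the other two arrays for Trib3. Ddit3, which encodes the transcription factor CHOP, had signals of 1182, 1524 and 1083, a difference of 0.60 ± 0.12 (1.51-fold), just past the fold used. It was under 1.5-fold without scaling (0.37), with spike-in scaling (0.49) and with the other background correction (0.57).

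The regulators upstream of these differed less. Atf4, whose product is controlled mainly at translation, was among the brightest members with 24772, 26250 and 25557, a difference of 0.31 ± 0.08, and its second probe gave 0.14 ± 0.12. Atf5, a related factor also controlled at translation, read 13667, 13899 and 13878, with a difference of 0.25 ± 0.13. The C/EBP partners of ATF4 and CHOP were closest to empty vector. Cebpb read 7838, 7153 and 7042, with a difference of 0.10 ± 0.13. Cebpg read 872, 827 and 877, with a difference of 0.15 ± 0.14. All 4 were under 1.5-fold on both arrays, and of the 4 only Atf4 was more than 2 SD between spots above empty vector on the Mst1r-labelled array.

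The kinases that start the pathway and the phosphatase subunit that ends it differed unequally. Ppp1r15a encodes GADD34, which directs protein phosphatase 1 to eIF2 and so reverses its phosphorylation. Its signals were 2963, 4979 and 3161, a difference of 0.98 ± 0.12 (1.97-fold), while the Slpi-labelled array was 0.17 ± 0.12 above empty vector. Of the 3 kinases measured, none was past 1.5-fold on either array. Eif2ak4 (GCN2), which senses uncharged tRNA, read 1088, 897 and 1069, with a difference of -0.05 ± 0.13. Eif2ak3 (PERK), the kinase of the endoplasmic reticulum, read 220, 213 and 247 (0.19 ± 0.27), and Eif2ak1 (HRI), the haem-regulated kinase, read 239, 197 and 201 (-0.05 ± 0.27). Both were dim, and their SD between spots leaves differences of this size unresolved.

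The 8 enzymes of amino acid and one-carbon metabolism were all under 1.5-fold on both arrays, with a median of 0.17 on the Mst1r-labelled and 0.02 on the Slpi-labelled array. Asns, asparagine synthetase, read 9765, 11279 and 9599, with a difference of 0.44 ± 0.13 on the Mst1r-labelled array and 0.05 ± 0.13 on the other, and its second probe in row 305 gave 0.31 ± 0.14. Psph, the last enzyme of serine synthesis, read 2109, 2423 and 1996, with a difference of 0.43 ± 0.12. These 2 were the enzymes more than 2 SD between spots above empty vector. The first enzymes of the same serine pathway lay lower. Phgdh was the brightest member of the list with 55114, 43632 and 53403, a difference of -0.11 ± 0.08, and Psat1 read 11819, 11660 and 11503, a difference of 0.21 ± 0.13. The mitochondrial one-carbon enzymes were near empty vector. Shmt2 read 3346, 3154 and 3353 (0.14 ± 0.12), and Mthfd2 read 1174, 1080 and 1094 (0.11 ± 0.12). Aldh18a1, which starts proline synthesis, read 1333, 1307 and 1159, with a difference of 0.20 ± 0.12. Cth, which makes cysteine from cystathionine, was dim with 109, 89.4 and 83.4 and differed by -0.05 ± 0.27 and, on the Slpi-labelled array, by -0.30 ± 0.27.

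Chac1 and the 2 inhibitors of mTORC1 signalling were each above empty vector on the Mst1r-labelled array. Chac1, an enzyme that cleaves glutathione, read 1965, 2750 and 1758, a difference of 0.72 ± 0.12 (1.64-fold), and on the Slpi-labelled array -0.08 ± 0.12. Without scaling its difference was 0.49, under 1.5-fold. Sesn2, a leucine sensor that restrains mTORC1, read 896, 1027 and 945, with a difference of 0.43 ± 0.13, and Ddit4, which restrains mTORC1 through the TSC complex, read 11048, 10807 and 10352, with a difference of 0.20 ± 0.13.

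Among the 6 amino acid transporters, Slc6a9 stood apart from the others. It encodes the glycine transporter GLYT1 and had the largest difference of all 31 members, with signals of 859, 1698 and 933, 1.21 ± 0.13 on the log2 scale (2.32-fold), and 1.99% of the features with a mean signal over 50 were at least as far above empty vector. The Slpi-labelled array was 0.20 ± 0.14 above empty vector. The cationic amino acid transporter Slc7a1 read 5842, 5914 and 5439, with a difference of 0.25 ± 0.13. Slc3a2, the heavy chain shared by several exchangers, read 10396, 10639 and 9608, with a difference of 0.26 ± 0.13. Its 2 light chains on the list were both under 1.5-fold. The cystine and glutamate exchanger Slc7a11 read 504, 472 and 464 (0.13 ± 0.14), and the large neutral amino acid exchanger Slc7a5 read 76.0, 80.1 and 61.5 (0.31 ± 0.27). Slc1a5, which carries glutamine and other neutral amino acids, was the member more than 2 SD between spots below empty vector on the Mst1r-labelled array, with signals of 2781, 1977 and 2380 and a difference of -0.26 ± 0.12. Its probe lay in the upper rows (row 24).

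None of the secreted factors and the surface receptor was past 1.5-fold higher on either array. Gdf15, a secreted stress cytokine, read 4398, 3893 and 4740, with differences of 0.05 ± 0.12 on the Mst1r-labelled and 0.19 ± 0.13 on the Slpi-labelled array. Vegfa, the angiogenic factor, read 1083, 876 and 927 at its brightest probe, with a difference of -0.08 ± 0.13. Vldlr, a lipoprotein receptor, read 61.6, 23.5 and 62.2, of which the middle value was not well above background. Its measured difference on the Mst1r-labelled array was -1.16 ± 0.74 (2.24-fold lower than with empty vector), under 2 SD between spots. It was -0.30 with the other background correction, and a second probe was near background on every array. The signals of Vldlr lay under those of the brightest stray control spots given above. Its probe lay in the lower rows (row 192), whereas most of those spots lay in the upper rows.

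**Figure D2:**
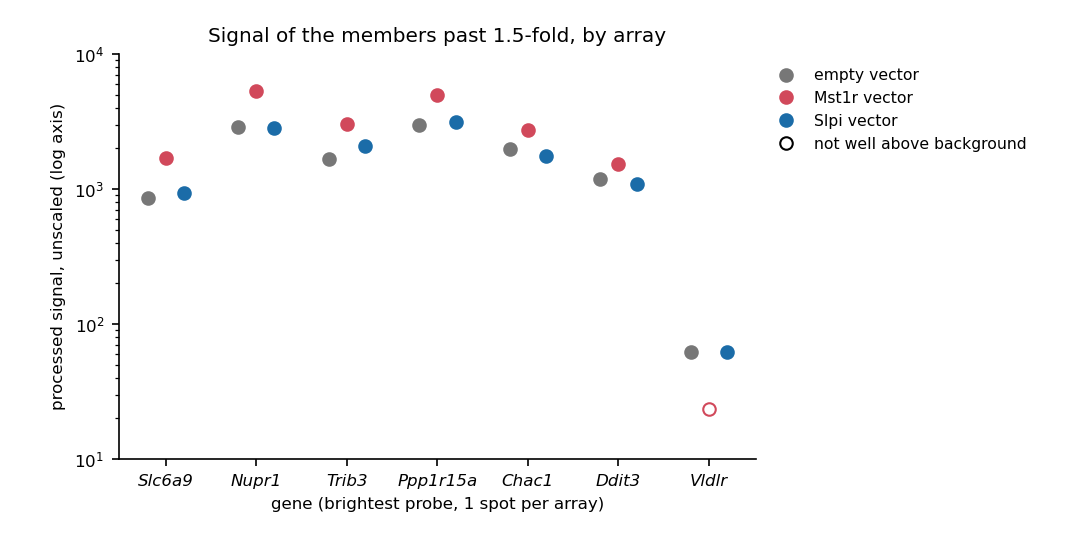
Unscaled processed signal (y axis, log scale) of the 7 members past 1.5-fold, 1 spot per array; the open circle is a reading not well above background. The Mst1r-labelled array was highest for the first 6 genes, for example 5317 against 2880 and 2834 for Nupr1, and lowest for Vldlr.

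The Mst1r-labelled and Slpi-labelled arrays, both labelled as carrying an insert, were also set against each other. This comparison shares the Mst1r-labelled array with the first one and so does not repeat it independently. In it 6 members were at least 1.5-fold higher on the Mst1r-labelled array, against 5.33% of the features, and Vldlr was lower, against 3.38%. In the lower rows 4 of the 19 were higher, against 3.62% of the features there, and Vldlr was lower, against 1.58%. The differences were 1.06 ± 0.12 for Nupr1, 1.02 ± 0.13 for Slc6a9, 0.81 ± 0.12 for Ppp1r15a, 0.80 ± 0.12 for Chac1, 0.70 ± 0.12 for Trib3 and 0.64 ± 0.12 for Ddit3. Trib3 and Ddit3 were under 1.5-fold here without scaling (0.54 and 0.49) and with median scaling. Vldlr differed by -1.26 ± 0.74 (2.39-fold lower as measured), and by -0.31 with the other background correction. The median over the members was 0.19 against -0.03 for all features, and 25 of the 31 were above 0. At 2-fold, 3 members were higher against empty vector (Slc6a9, Nupr1 and Trib3, against 3.29% of the features) and 2 against the Slpi-labelled array (Nupr1 and Slc6a9, against 3.11%), and Vldlr was lower in both, against 2.58% and 2.02%. At 10-fold, the fold of the study's own gene selection, 0 members were higher or lower on the Mst1r-labelled array than with empty vector, against 1.2% and 1.3% of the features.

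Several probes of one gene offer a second reading on the same array, and 11 members had more than 1 detected probe. All probes of a gene had the same sign in 6 of these 11 for the Mst1r-labelled array against empty vector, in 5 of 11 for the Slpi-labelled array against empty vector and in 8 of 11 for the direct comparison. Slc3a2 was split between bright probes. Its second probe, designed on another transcript (NM_001161413, row 30), read 1971, 1174 and 1858, a difference of -0.52 ± 0.12 where the brightest probe gave 0.26. Of the 4 probes of Vegfa, the dimmest (row 91) read 135, 36.2 and 29.6, a difference of -1.67 ± 0.38, while the others lay between -0.08 and 0.34. The second probe of Shmt2 (NM_001252316, row 173) read 54.7, 30.2 and 31.4, a difference of -0.63 ± 0.74, and that of Slc7a11 gave -0.36 ± 0.38. Whether these probes read other transcripts was not tested.

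**Figure D3:**
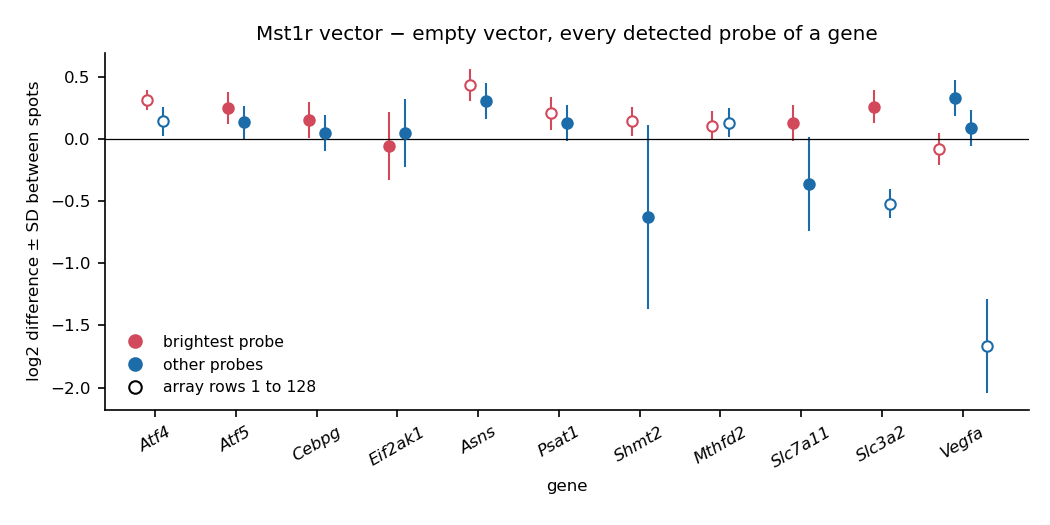
Scaled log2 difference between the Mst1r-labelled and the empty vector array for every detected probe of the 11 members with more than 1 (y axis, log2; whiskers, SD between repeated spots at that brightness; red, brightest probe; blue, other probes; open, upper rows). The probes of Atf4 and Asns lie on one side of 0, whereas those of Slc3a2 lie at 0.26 and -0.52 and those of Vegfa spread from 0.34 down to -1.67.

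Other genes of the same and of neighbouring pathways were examined as lists, over the genes with a mean signal over 50. Of 20 further genes of the ATF4 pathway, 17 passed this minimum, with a median of 0.19 on the Mst1r-labelled and 0.04 on the Slpi-labelled array. Past 1.5-fold higher on the Mst1r-labelled array were 3 of the 17, against 848 of all 16946 features with a mean signal over 50. Atf3, a stress-induced repressor that ATF4 activates, had the largest difference, with signals of 807, 2189 and 865 (1.67 ± 0.13, 3.18-fold, row 28). Aldh1l2, a mitochondrial folate enzyme, read 131, 268 and 130 (1.26 ± 0.22, row 9), and Ero1a, an oxidase of the endoplasmic reticulum, read 1855, 2400 and 1825 (0.60 ± 0.12, row 183). The latter 2 were named after their values were seen. The reading of 268 for Aldh1l2, in the upper rows, lay under the brightest stray control spot of that array (289). On the Slpi-labelled array Gadd45a, a DNA damage and growth arrest gene, was past 1.5-fold higher, with 234, 247 and 352 (0.66 ± 0.22, row 120), where 310 of the 16946 features were. Its reading of 352 came from the upper rows and lay under the brightest stray control spot of that array (481).

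In the other lists no gene was past 1.5-fold, where 848 of the 16946 features were higher and 501 lower on the Mst1r-labelled array, a share at which a count of 0 in lists this short says little. All 20 cytosolic aminoacyl-tRNA synthetases, which charge tRNAs and include ATF4 targets, were under 1.5-fold, with medians of 0.02 on the Mst1r-labelled and -0.01 on the Slpi-labelled array. Cars, the cysteinyl-tRNA synthetase, was the farthest on both, at 0.44 ± 0.13 and 0.33 ± 0.13. The 11 genes of eIF2, its exchange factor eIF2B and their regulators had medians of -0.07 and -0.02 and 0 past 1.5-fold, and the farthest were Eif2ak2, the kinase of double-stranded RNA (0.26 ± 0.12 on the Mst1r-labelled array), and Dnajc3, an inhibitor of such kinases (-0.35 ± 0.22 on the Slpi-labelled array). The 18 genes of the ATF6 and XBP1 arms of the endoplasmic reticulum stress response, chaperones and degradation factors, had medians of 0.15 and 0.02 and 0 past 1.5-fold. Herpud1, a factor of protein degradation there, was the farthest on the Mst1r-labelled array, with 920, 1088 and 947 (0.47 ± 0.13), and Hyou1, a chaperone, on the Slpi-labelled array, with 48.2, 48.1 and 58.5 (0.36 ± 0.46). On the Mst1r-labelled array 5 of the 18 were more than 2 SD between spots above empty vector and 1 was below. Of the 16946 features, 1512 were so above and 1638 so below.

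**Figure D4:**
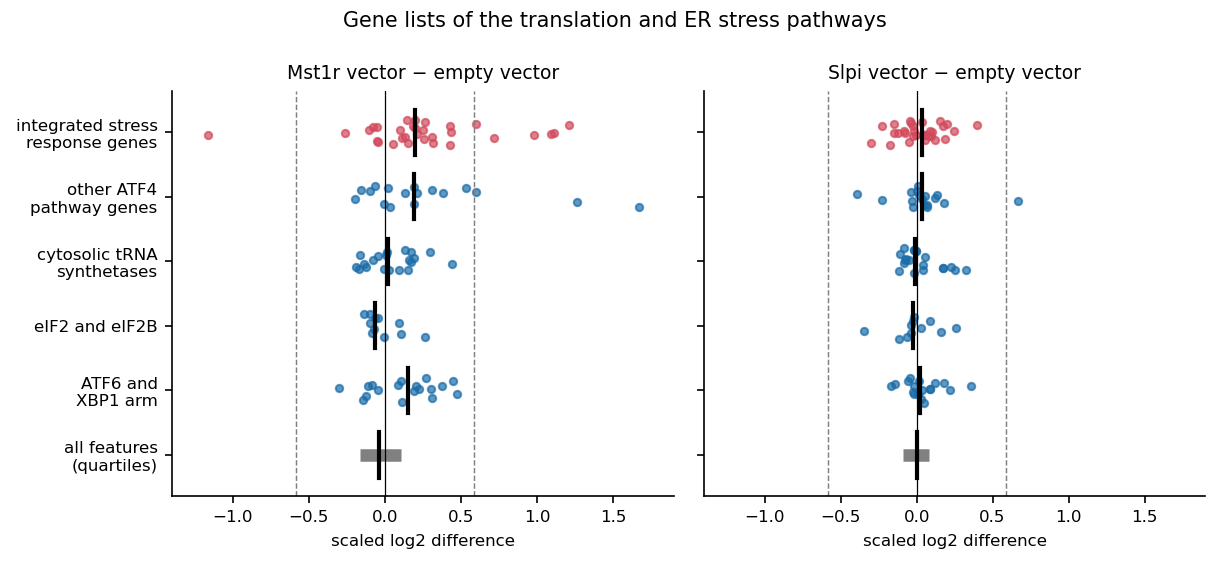
Scaled log2 differences (x axis, log2) of each gene in 5 lists against empty vector, for the Mst1r-labelled (left) and the Slpi-labelled array (right); black bars are medians, the grey bar spans the quartiles of all features with a mean signal over 50, and dashed lines mark 1.5-fold. Points past the right dashed line on the Mst1r-labelled array belong to the first 2 lists, with medians of 0.20 and 0.19, whereas the tRNA synthetases have a median of 0.02 and none past it.

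Of 10 markers of hepatocytes and hepatoma cells, 5 were well above background on all arrays, Alb, Afp, Trf, Apoa2 and Foxa2, whereas Hnf4a and Apoh were not on any. The summed scaled signal of all 10 was 292 with empty vector, 276 on the Mst1r-labelled and 299.97 on the Slpi-labelled array. On the Mst1r-labelled array the farthest of the 5 was Alb, with 5083, 6449 and 4966 (0.57 ± 0.13). Trf, the brightest marker, was lower there, with 48573, 35784 and 47485 (-0.21 ± 0.08). Apoa2 (-0.03 ± 0.12), Foxa2 (-0.08 ± 0.12) and Afp (0.0005 ± 0.08) differed by no more than the SD between spots. Fgb, Ttr and Apoa1 were well above background on some arrays only, with all signals under 50. Fgb read 4.27, 28.4 and 3.93 (a bound of 1.76-fold higher on the Mst1r-labelled array than with empty vector). Ttr read 9.60, 26.4 and 22.9 (a bound of 1.63-fold), and Apoa1 4.83, 9.64 and 43.1 (a bound of 2.40-fold higher on the Slpi-labelled array). These bounds leave out the SD between spots. The measured difference of Ttr was 1.69 ± 0.95, under 2 SD. Its probe lay in the upper rows (row 28), and its readings lay under the brightest stray control spots. Of 8 markers of other cells, 4 were well above background on all arrays, the matrix genes Dcn and Col1a1, Cd68 of macrophages (531, 378 and 482) and Pecam1 of endothelium (35.9, 32.1 and 24.1), whereas the leukocyte marker Ptprc, the macrophage marker Adgre1 and the endothelial marker Cdh5 were not on any. Their summed scaled signal was 180.1, 151 and 184, carried mostly by Dcn (41199, 27530 and 40480, -0.35 ± 0.08 on the Mst1r-labelled array). The part of these differences in the values of the stress response genes was not tested.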

How the data were processed

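RNA of 1 culture per vector was labelled with Cy3 from 100 ng and hybridised to 1-colour Agilent mouse arrays with 62976 spots, and the arrays were read with Agilent Feature Extraction 12.0.3.1 per the file headers. The values deposited by the authors are processed signal intensities, background-subtracted and spatially detrended on a linear scale, before any scaling between arrays. The deposited table of the whole series holds the same intensities, of which 99.9% lay within 0.01 on the log2 scale of the mean over a probe's spots.

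Control spots and outlier flags were left out, spots of a probe were averaged, and log2 signals were scaled to the 75th percentile of each array. Probes were named through their accession (32989 of the 56595 probes used, RefSeq names). A gene was read from its brightest probe. Features count genes with a symbol once and other probes by their accession. A difference counted as past a fold where the brighter array had a signal over 50, since 1 array per group allows no test and no p-value. The SD between spots came from probes printed at least 10 times, here with control probes and flagged spots included, by brightness (0.70 at the dimmest to 0.057 at the brightest). At log2 signals from 8 to 10, 10 to 12 and 12 to 14 it rested on 9, 12 and 22 probes, counted once per array. Counts, medians and log2 differences used every reading as it was, also where it was not well above background. Only a fold given as a bound was treated otherwise. For it, a reading not well above background was replaced by the dimmest probe well above background on its array, where it lay lower. Members and lists were chosen with earlier results of these data known; all members were to be given by their value on each array, and from each other list the gene farthest from empty vector. 1 listed marker is not reported here. Scripts were tested on simulated data. Python 3.11.15, pandas 2.3.3, numpy 2.4.6 and, for normexp background correction with an offset of 50, limma 3.58.1 in R 4.3.3 were used. The precision is limited by the number of arrays, 3 in all.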

Additional observations from a re-analysis of the deposited data

How the results depend on the processing

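The counts of members were recomputed under 13 alternatives and the medians and single members under up to 11 of them, whereas the other lists, markers and promoter motifs were not recomputed, and 1 array per vector left none to leave out. No paired analysis was possible because each vector had 1 array. Of the members 1.5-fold higher against empty vector (6), 5 passed with normexp background correction or spike-in scaling, 4 without scaling and 4 with the lower rows only. At 2-fold 3 passed and at 10-fold 0, against 2 and 0 in the comparison with the Slpi-labelled array. There, 7 were higher with spike-in scaling and 4 with median scaling, without scaling or with the lower rows only. Slc6a9, Trib3 and Ppp1r15a stayed past 1.5-fold against empty vector in all 11 alternatives of scaling, correction, probe choice and filter, with lowest values of 0.98, 0.86 and 0.75. Nupr1 did in all 10 that could be run on its probe, with a lowest value of 0.88. The count of 1 lower member, Vldlr, against empty vector and against the Slpi-labelled array became 0 with normexp background correction, 0 when only genes well above background on all arrays were kept and 0 at 10-fold. With the lower rows only it was 2 against empty vector, and 1 in place of 0 for the Slpi-labelled array against empty vector, as the second probe of Shmt2 then stood for that gene.

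The medians followed the scaling, as did those of all features. Without scaling the median of the members against empty vector was -0.029 on the Mst1r-labelled array, of opposite sign, where that of all features was -0.27. On the Slpi-labelled array it was 0.20 with median scaling, where all features stood at 0.17, and -0.21 with spike-in scaling, where they stood at -0.24. Between the Mst1r-labelled and the Slpi-labelled array it was 0.059 with median scaling, 0.32 with spike-in scaling and 0.039 without scaling, against -0.16, 0.10 and -0.18 for all features. Differences between members with signals under 100 are limited by a SD between spots of 0.27 or more on the log2 scale.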
